A study of Mus musculus with 272 samples.

Results

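The sites described here were stretches of open chromatin inside genes that carried none of the 3 histone marks profiled in mouse muscle stem cells (MuSCs). They were selected on the measured peaks themselves. Each site was an ATAC-seq peak of replicate 1 that overlapped a peak of replicate 2 by at least 1 bp, lay more than 3 kb from every transcription start site of GENCODE M21, overlapped a gene body, and overlapped no H3K4me3, H3K27ac or H3K27me3 peak of either replicate. Of the 140937 peaks listed for ATAC-seq replicate 1, 140716 lay on the 21 assembled chromosomes and 88575 of these overlapped a replicate 2 peak. More than 3 kb from a start site lay 48588 of them, 28250 of which were in a gene body, and 22385 of the 28250 carried no mark. These 22385 peaks are the unmarked gene-body sites. Of the others, 4835 overlapped an H3K27ac peak (called acetylated gene-body sites below) and 1030 overlapped an H3K4me3 or H3K27me3 peak but no H3K27ac peak. The requirement for both replicates bears on the number: with replicate 1 lists alone 42357 sites met the rule, and with replicate 2 lists alone 28510.

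The study examined how Cas9-induced DNA breaks are repaired in MuSCs, the Pax7-expressing stem cells of skeletal muscle, and mapped the chromatin of these cells in 2 replicates per assay, by ATAC-seq for accessibility and by ChIP-seq for the 3 marks. Cells were GFP+ and were sorted by FACS from hindlimb muscle of Pax7Cas9 mice, in which Pax7Cre switches on a Cre-dependent Cas9-EGFP allele at Rosa26, so that the sort takes cells with a history of Pax7 expression. All 8 libraries thus came from 1 cell type with no treatment contrast, and the labels name the tissue only as skeletal muscle. The age and number of animals behind each library are not given in the sources used here, so the spread between replicates may be technical.

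ATAC-seq finds DNA that the Tn5 transposase can reach, which is usually DNA cleared of nucleosomes by bound proteins. H3K4me3 is placed around active start sites, H3K27ac on active promoters and enhancers, and H3K27me3 by Polycomb complexes on silenced genes. Accessible DNA without these marks is known to include sites of the insulator protein CTCF, which folds chromatin together with cohesin, and enhancers that are primed but not acetylated, which carry H3K4me1, a mark that was not among the libraries used here.

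Promoter marks were compared with marker genes of the cell types in muscle. A promoter counted as having a mark when both replicates had a peak within 3 kb of any start site of the gene. Of 13 MuSC marker genes, 12 had both an H3K4me3 and an H3K27ac peak at the promoter, against 1 of 8 blood, 1 of 10 endothelial, 3 of 10 fibro-adipogenic and 0 of 10 neuron marker genes. Of the 17331 protein-coding genes with bases more than 3 kb from every start site, 8585 had both. The ATAC-seq lists differed in size, with 140716 peaks of median width 117 bp in replicate 1 and 94382 peaks of median width 185 bp in replicate 2 on the assembled chromosomes. The lists hold no read numbers, so the depth behind these peaks is unknown. Shares below were therefore computed with either replicate as the query and are given as the mean ± SD of both, or for each query in turn. The set with replicate 2 as the query held 20671 sites, and 99.5% of them overlapped a site of the replicate 1 set, while 98.2% of the replicate 1 set overlapped the other. The SD therefore measures the choice of query and not 2 independent samplings.

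The sequences below are 120 bases of the plus strand of GRCm38.p6 (mm10) centred on the summits of selected sites, and they are shown because 3 short motifs recurred at the summits. Capitals mark every match to the CTCF core, to the AP-1 motif (TGANTCA) or to the MyoD-type E-box (CAGCTG, bound by MyoD and Myf5) on either strand. Fos and Jun dimers bind TGACTCA and TGAGTCA. The AP-1 pattern also accepts TGAATCA and TGATTCA, the form of the matches printed for Gm26871 and Pitpnc1, and the AP-1 shares below pool all of these. For each motif, the strongest sites with a match within 30 bp of the summit are given, ranked by the lower of the 2 replicates' fold enrichments. Sites whose printed bases touch a UTR, sites already given for another motif and some sites that are not reported here were passed over. The strongest site of all and sites of the MuSC genes Pax7 and Vcam1 follow.
Gm14005 intron, CTCF core and E-box, chr2:128396049-128396168: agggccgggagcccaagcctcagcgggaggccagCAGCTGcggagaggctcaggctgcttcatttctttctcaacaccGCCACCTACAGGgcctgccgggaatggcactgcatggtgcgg
Ubr4 intron, AP-1 and CTCF core, chr4:139430329-139430448: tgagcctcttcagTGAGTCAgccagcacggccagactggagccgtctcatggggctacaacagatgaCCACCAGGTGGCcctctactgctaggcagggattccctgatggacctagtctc
Agrp intron, E-box and CTCF core, chr8:105622495-105622614: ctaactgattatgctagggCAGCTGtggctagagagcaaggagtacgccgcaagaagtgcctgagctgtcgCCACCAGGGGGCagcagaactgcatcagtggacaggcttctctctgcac
Qk intron, AP-1, chr17:10268594-10268713: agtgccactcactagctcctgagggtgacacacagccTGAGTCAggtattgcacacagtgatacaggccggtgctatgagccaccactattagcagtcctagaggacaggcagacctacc
Tango6 intron, AP-1 in 2 places, chr8:106718370-106718489: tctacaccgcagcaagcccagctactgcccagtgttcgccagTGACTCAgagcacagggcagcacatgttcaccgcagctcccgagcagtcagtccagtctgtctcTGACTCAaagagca
Ano2 intron, E-box and AP-1, chr6:125937659-125937778: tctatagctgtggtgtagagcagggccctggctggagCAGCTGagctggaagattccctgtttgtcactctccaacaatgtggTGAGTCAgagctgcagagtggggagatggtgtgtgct
Gm26871 intron, AP-1 and E-box, chr3:118500349-118500468: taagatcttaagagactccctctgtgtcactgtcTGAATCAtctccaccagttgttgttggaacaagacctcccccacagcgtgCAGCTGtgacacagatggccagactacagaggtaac
Disp1 intron, E-box, chr1:183159301-183159420: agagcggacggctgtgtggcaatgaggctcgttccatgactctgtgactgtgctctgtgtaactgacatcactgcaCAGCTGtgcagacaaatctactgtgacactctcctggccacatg
Pitpnc1 intron, AP-1 and E-box, chr11:107341482-107341601: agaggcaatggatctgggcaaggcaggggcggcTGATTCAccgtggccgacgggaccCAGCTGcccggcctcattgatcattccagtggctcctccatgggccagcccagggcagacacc
Xrcc6 intron, none of the 3 motifs, chr15:81991145-81991264: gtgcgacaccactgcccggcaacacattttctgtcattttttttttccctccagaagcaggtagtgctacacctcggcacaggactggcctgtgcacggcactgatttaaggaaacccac
Pax7 intron, an E-box overlapping an AP-1 match and a second E-box, chr4:139797485-139797604: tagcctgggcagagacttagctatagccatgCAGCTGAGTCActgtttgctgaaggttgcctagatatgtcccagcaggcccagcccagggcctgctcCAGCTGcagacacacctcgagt
Vcam1 intron, none of the 3 motifs, chr3:116114631-116114750: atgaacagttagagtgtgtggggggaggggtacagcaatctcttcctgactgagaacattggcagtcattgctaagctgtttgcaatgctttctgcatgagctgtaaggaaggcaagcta

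Unmarked sites made up most of the reproducible open chromatin inside genes away from promoters. They were 79.2% ± 0.0106 (SD, n = 2) of distal gene-body peaks, and outside genes 77.5% ± 0.222 (SD, n = 2) of distal peaks carried no mark. Of all reproducible ATAC-seq peaks, 25.6% ± 0.408 (SD, n = 2) were unmarked gene-body sites. The rule used the marks and the ATAC-seq lists, so these shares describe the selection.

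The sites were narrow and of moderate enrichment. Their median width was 146 bp in replicate 1 and 179 bp with replicate 2 as the query, and 51.7% of the replicate 1 peaks were under 150 bp. The median fold enrichment at the summit, which is the authors' ratio of the pileup to the local background, was 6.13 in replicate 1 and 6.17 with replicate 2 as the query. The middle 90% of sites ran from 3.76 to 14.5 in replicate 1 and from 3.72 to 14.4 with replicate 2 as the query. The 4835 acetylated gene-body sites were wider, at a median of 230 bp, with a median fold of 7.46, and with replicate 2 as the query 7.66. The 15727 unmarked intergenic sites, at 148 bp and 6.33, were close to the gene-body sites, and the 39987 reproducible peaks within 3 kb of a start site had a median width of 200 bp and a median fold of 6.78. Acetylated sites had the higher median fold with either query, and since the absence of a mark was part of the rule they are given without a test.

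The rule required a peak in both replicates, so their likeness was partly selected and is given as a description. Across the 21846 sites with a single partner peak in replicate 2, Spearman's rho between the folds of both replicates was 0.725, and 525 of them (2.40%) differed by more than 2-fold. These points share 2 libraries and are not independent samplings. The median log2 ratio of replicate 1 to replicate 2 was 0.01.

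Most of the sites lay far from any mark. The nearest peak of any of the 3 marks was at a median distance of 14.5 kb, and 13518 sites (60.4%) were more than 10 kb from one. Within 500 bp of a mark lay 1917 sites (8.56%), chiefly beside H3K27ac, to which 1650 sites were that close, against 344 for H3K4me3 and 45 for H3K27me3. The median distance was 21.1 kb to H3K27ac, 27.5 kb to H3K4me3 and 239 kb to H3K27me3. The lists differ in size and width, so these distances do not compare the marks. H3K27me3 had 6080 and 10485 peaks of median width 176.5 and 181 bp in replicates 1 and 2, and H3K27ac had 24217 and 18589 peaks of 593 and 587 bp. The lowest −log10 q-value that the peak caller gave was 0 and 0.0295 in the H3K27me3 lists, against 1.32 in both H3K27ac lists. The H3K27me3 lists thus include weak calls. Near the edge of the rule the values changed little. The 474 sites with a mark 1 to 50 bp away had a median fold of 7.07 and a width of 188.5 bp, and the 578 gene-body peaks left out because of 1 to 50 bp of overlap with a mark had 7.46 and 202 bp. At the other threshold, 194 sites at 3001 to 3100 bp from a start site had a median fold of 5.92, and 182 unmarked peaks at 2901 to 3000 bp had 5.79. The median distance to the nearest start site was 12.5 kb, and 1911 sites (8.54%) were more than 50 kb from one.

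Sites were often close neighbours. The median distance from a site to the next was 4.32 kb, yet 7049 sites (31.5%) had another within 1 kb. Joining sites within 1 kb gave 18553 loci, of which 15336 (82.7%) held 1 site, 2697 held 2 and 520 held 3 or more. The largest loci held 5 sites, within 704 bp in Bmp7, which encodes a bone morphogenetic protein, and within 2642 bp in Slit3, which encodes a secreted guidance protein, for example. Such neighbours can be parts of 1 open region that the peak caller split.

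Sites were spread over all autosomes and sparse on the X chromosome. Over the 940 Mb of eligible gene body, meaning bases inside a gene and more than 3 kb from every start site, there were 23.8 sites per Mb in replicate 1 and 21.99 in replicate 2. Chromosome 11 had most, with 33.8 and 31.3 per Mb, and chromosome 14 had fewest among autosomes, with 18.4 and 17.2. The X chromosome had 4.90 and 4.53 per Mb, and the 19 autosomes together had 24.8 and 22.9. Acetylated gene-body sites were sparse there as well, at 0.680 per Mb in replicate 1 against 3.24 to 7.66 on the autosomes. No site lay on the Y chromosome, which had 4.49 Mb of eligible gene body.

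The great majority of sites lay in introns, in close proportion to the space introns offer. The summit fell in an intron at 92.5% ± 0.0317 (SD, n = 2) of the sites, in a coding exon at 2.55% ± 0.00589, in a 3' UTR at 2.95% ± 0.0182, in an exon of a noncoding transcript at 1.90% ± 0.00501 and in a 5' UTR at 0.0534% ± 0.000278. In replicate 1 these were 20710 intronic sites, 571 in coding exons, 657 in 3' UTRs, 424 in noncoding exons and 12 in 5' UTRs, and 11 summits fell just outside the gene that the peak overlapped. All exons together held 7.45% ± 0.0288 (SD, n = 2) of the sites and 6.00% of the eligible bases. Per base, exons were thus hit slightly more often, with 29.5 sites per Mb in exons against 23.4 in introns in replicate 1, and 27.4 against 21.6 in replicate 2. Coding exons had 31.3 and 29 per Mb.

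Exon and intron sites had like values. The median fold in replicate 1 was 5.94 in coding exons, 6.02 in 3' UTRs, 6.47 in noncoding exons and 6.13 in introns, and median widths ran from 142 to 150.5 bp over these 4 places. Of the acetylated gene-body sites, 7.03% ± 0.380 (SD, n = 2) lay in exons. The 1030 gene-body peaks with an H3K4me3 or H3K27me3 peak but no H3K27ac peak stood apart, with 24.8% ± 0.514 (SD, n = 2) in exons and 17.1% ± 0.616 in coding exons.

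First introns held more sites per base than later ones. In the reference transcripts with ranked introns, 5518 sites lay in a first intron, 30.2 per Mb, against 22.9 per Mb in middle introns and 23.3 in last introns in replicate 1. With replicate 2 as the query these were 27.9, 21.2 and 21.2 per Mb. Acetylated sites leaned further towards first introns, with 7.75 per Mb there and 4.59 in middle introns in replicate 1. Along 10159 protein-coding genes of at least 20 kb, cut into 10 parts of equal length, the density in the part next to the start was lowest, at 20.6 per Mb in replicate 1 and 19.2 in replicate 2. In the other parts it lay between 24.5 and 27.03 in replicate 1 and between 22.5 and 24.8 in replicate 2, and the part at the gene's end had 27.03 and 24.6. The part next to the start holds few bases beyond 3 kb from a start site in short genes, 58.7 Mb in all against 78.5 to 83.9 Mb in each of the others.

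**Figure D1:**
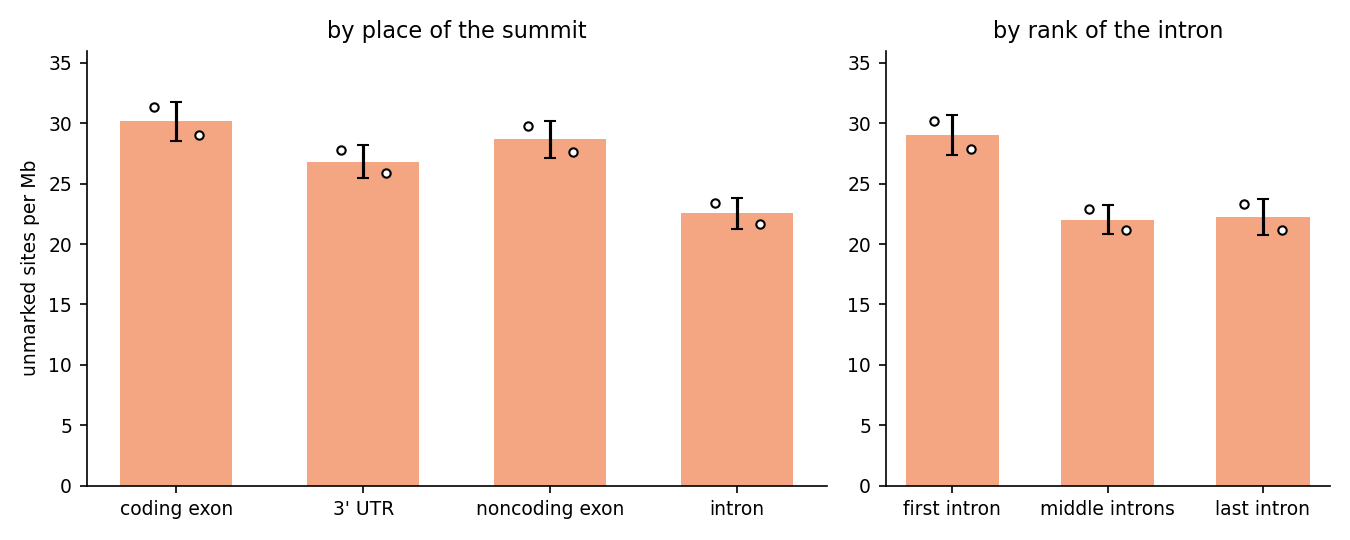
Unmarked sites per Mb of eligible gene body, by the place of the summit (left) and by the rank of the intron (right). Bars are means of both query replicates, error bars are the SD (n = 2) and points are replicate 1 (left of the bar's middle) and replicate 2. Coding exons stand at 31.3 and 29 per Mb and introns at 23.4 and 21.6, and first introns at 30.2 and 27.9 lie above middle introns at 22.9 and 21.2.

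Most protein-coding genes that could hold a site did not. Of 17331 protein-coding genes with eligible bases, 5543 held at least 1 site, which is 32%, and 1302 held at least 5, 461 at least 10 and 93 at least 20. The median was 2 sites among the 5543. Counting noncoding genes as well, 6878 of the 55413 annotated genes held a site (10442 without replicate 2 and 7799 without replicate 1), 712 of them lincRNA genes and 378 antisense genes. Longer genes held more: across the 17331 genes, Spearman's rho of eligible length with the number of sites was 0.544. The number per gene was nearly the same from either replicate (rho 0.994), from lists that share most sites. A site in overlapping genes counts for each of them, which concerned 1358 sites (6.07%).

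The 2 genes with most sites were gene models that span many others. Gm20388, an annotated protein-coding model of 4435 kb on chromosome 8 (119910841 to 124345722), held 297 sites in replicate 1 and 264 in replicate 2, but 71 other protein-coding genes lie inside it and 132 of its sites were in one of them. The Fgfr2 model, which encodes a fibroblast growth factor receptor, spans 2961 kb of chromosome 7 (130162451 to 133123350) with 29 other protein-coding genes inside, and 67 of its 109 sites were in one of those. Among the genes inside, Tacc2 and Lhpp held the most. The counts for these models are thus counts over neighbourhoods.

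Next came long genes with 32 to 52 sites each. Gse1, a subunit of histone deacetylase complexes, held 52 sites in replicate 1 and 44 in replicate 2 over 311 kb of eligible gene body, and it lies inside Gm20388. Camta1, a calmodulin-binding transcription activator, held 48 and 41 sites and no acetylated distal site. Ank3, which encodes ankyrin-G and ties membrane proteins to the spectrin skeleton, held 42 and 35. Hivep3, a zinc finger factor, held 42 and 39, Prkce, protein kinase C epsilon, held 41 and 39, and Nav2, a neuron navigator, held 37 and 34. In these 5 genes after Gse1, 0 to 3 distal ATAC-seq peaks were acetylated, and of their distal peaks 42 of 47 in Ank3 and 37 of 42 in Nav2 were unmarked, where the share over all protein-coding genes was 79.2%.

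The remaining 12 of the 20 leading protein-coding genes held 32 to 34 sites each. With 34 sites each in replicate 1 stood Mast4, a kinase, Msi2, an RNA-binding protein of the Musashi family, and Sorcs2, a sortilin receptor. With 33 stood Arid1b, a SWI/SNF remodelling subunit, Auts2, Cmip, Ctif, a cap-dependent translation factor, the forkhead factor Foxp1, and the zinc finger factor Glis1. Bach2, a bZIP repressor, the nuclear receptor Rora, and Sh3pxd2a, a scaffold of podosomes, held 32 each. Bach2 and Rora held 14 and 15 acetylated sites beside their unmarked ones, while Glis1 held 0 acetylated of 33 distal peaks. Of the 20 genes, 19 had H3K4me3 and H3K27ac at the promoter, beside 8585 of all 17331 genes. Sorcs2 had H3K4me3 without H3K27ac. All 20 are long, so the share over all genes is not matched for length. Among genes with over 100 kb of eligible body, 950 had both marks, 481 had H3K4me3 without H3K27ac and 345 had no listed mark. In these genes coding exons held few sites, 3 in Gm20388, 7 in Fgfr2 and 0 in each of the other 18.

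Noncoding genes led with a set of long loci. The lincRNA Gm14005 held 39 sites in replicate 1 and 36 in replicate 2, and a CTCF-core site of this gene is the first sequence above. Pvt1, the long noncoding RNA next to Myc, held 29 and 28 unmarked sites and 12 acetylated ones. The pseudogene transcript AC169509.1 held 33 and 26, the lincRNA Gm26561 held 26 and 23, and the antisense gene Zmiz1os1 held 20 and 17.

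Relative to eligible length, shorter genes led. Among protein-coding genes with at least 5 sites, Mmp2, the gelatinase that cuts basement membrane collagen, had 57.0 sites per 100 kb, from 7 sites in replicate 1 and 5 in replicate 2 over 12.3 kb. Tmprss12, a membrane serine protease, had 54.2 from 5 and 3 sites, and Spty2d1 had 47.7 from 7 and 5. Pxn, which encodes the focal adhesion protein paxillin, had 43.5 from 9 and 8, and Tnfrsf1b, a receptor of tumour necrosis factor, had 42.8 from 13 and 11. In coding exons lay 1 of the sites of Tmprss12 and 3 of those of Spty2d1. The densities rest on few sites and on the replicate chosen.

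**Figure D2:**
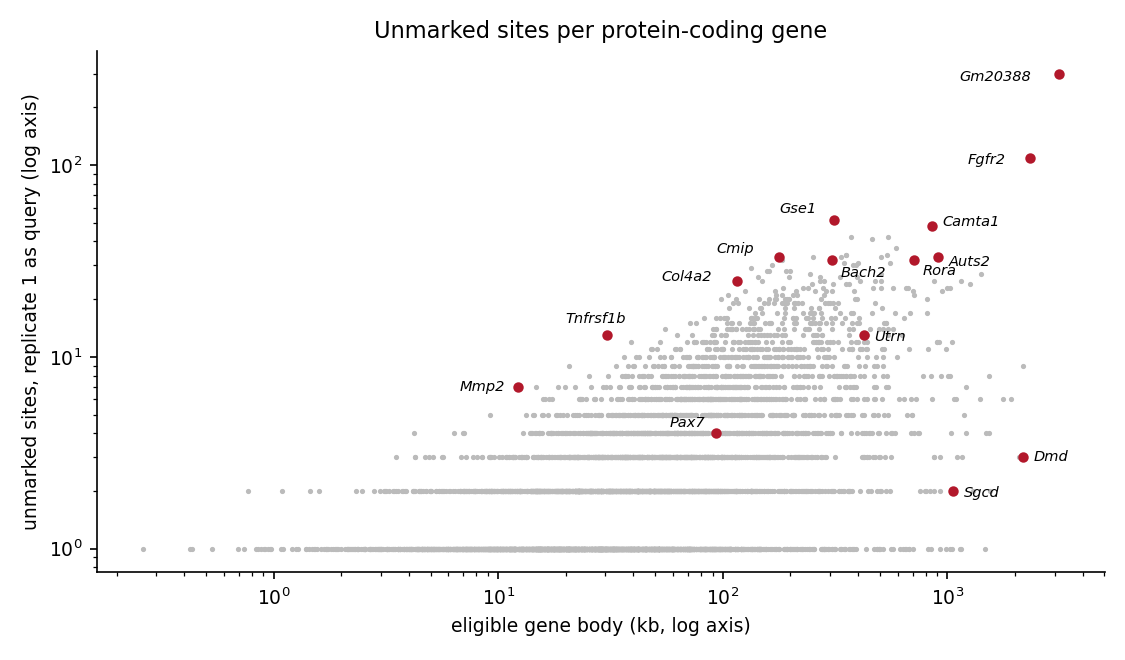
Number of unmarked sites per protein-coding gene with at least 1 site (grey points, replicate 1 as query) against the gene's eligible gene body in kb, both on log axes, with 15 genes named in red. The spanning models Gm20388 (297) and Fgfr2 (109) stand above all others, Mmp2 reaches 7 sites in 12.3 kb, and Dmd holds 3 sites in 2176 kb.

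The density of sites differed with the marks at the gene's promoter. The 8585 protein-coding genes with H3K4me3 and H3K27ac at the promoter held 35.1 ± 1.97 sites per Mb (SD, n = 2) of eligible gene body, the 2199 genes with H3K4me3 but neither of the other marks held 15.01 ± 0.878, the 547 genes with H3K4me3 and H3K27me3 held 22.7 ± 1.52, the 155 genes with H3K27me3 without H3K4me3 held 21.9 ± 0.886, the 72 genes with H3K27ac without H3K4me3 held 42.96 ± 4.21, and the 5773 genes with no listed mark held 10.7 ± 0.643. Over all lengths pooled, genes with H3K27me3, with or without H3K4me3, thus had more sites per Mb than genes with H3K4me3 alone. This order did not hold in every length band below. The H3K27me3 states rest on lists that include weak calls, although both replicates had to have a peak. Acetylated sites followed the promoter state more steeply, with 9.86 per Mb at genes with both active marks and 1.59 at genes with none in replicate 1. Genes of these states differ in length, so the same was computed within bands of eligible length.

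In genes with under 20 kb of eligible body, H3K4me3 genes without H3K27ac had 35.8 and 33.4 sites per Mb in the replicates and genes with both active marks had 33.7 and 31.5, so that these states overlapped, and H3K4me3 and H3K27me3 genes had 40.2 and 35.8. In genes of over 100 kb they stood apart, at 10.5 and 9.65 per Mb without H3K27ac against 35.7 and 32.9 with it. Over 100 kb, H3K4me3 and H3K27me3 genes had 19.2 and 17.4, and H3K27me3 genes without H3K4me3 had 20.7 and 20.1. At 20 to 50 kb the order was reversed, with 36.5 and 33.3 in H3K4me3 genes without H3K27ac. There H3K4me3 and H3K27me3 genes had 33.2 and 30.4, and H3K27me3 genes without H3K4me3 had 19.7 and 17.8. Genes with no listed mark held fewest in every band, from 19.5 and 18.1 per Mb under 20 kb to 5.51 and 5.02 over 100 kb.

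**Figure D3:**
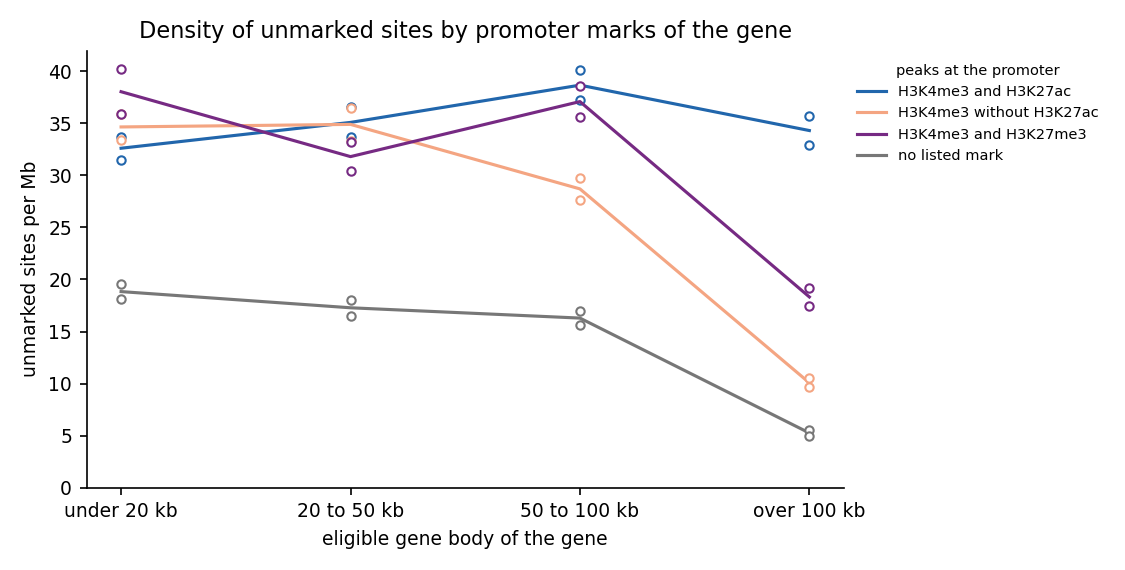
Unmarked sites per Mb of eligible gene body in protein-coding genes by the peaks at their promoters and by eligible length. Points are replicates 1 and 2 as query and lines join their means. Genes with H3K4me3 and H3K27ac stay between 31.5 and 40.1 per Mb in every length band, while genes with H3K4me3 without H3K27ac fall from 35.8 and 33.4 to 10.5 and 9.65 in genes of over 100 kb.

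Genes that mark MuSCs had mostly acetylated distal open chromatin. Of 9 MuSC marker genes with eligible bases, 4 held an unmarked site, against 32% of all such protein-coding genes, and the genes of these lists differ in length from one another. Of the distal ATAC-seq peaks in these genes 28.1% were unmarked, with 9 unmarked and 20 acetylated peaks, against 79.2% over all protein-coding genes. Per Mb, unmarked sites were not fewer there, at 34.7 with either replicate as the query against 25.1 and 23.2 over all protein-coding genes. Protein-coding genes with H3K4me3 and H3K27ac at the promoter, as 12 of the 13 markers had, held 36.5 and 33.7. Acetylated peaks were at 77.1 per Mb against 5.47 in replicate 1. The numbers are small, and 9 of the 20 acetylated peaks were in Pax7. Pax7, the transcription factor that defines the lineage, held 4 unmarked sites and 9 acetylated peaks. Its strongest unmarked site had folds of 12.7 and 10.1 in replicates 1 and 2 and lay 2797 bp from a mark, and the other 3 had folds of 3.54 to 5.75 in replicate 1, one of them 316 bp from a mark. Vcam1, an adhesion molecule of MuSCs, held 1 site with folds of 14.3 and 10.8, and 10659 bp from a mark. Chrdl2, which encodes a chordin-like secreted protein, held 3 sites, with folds of 4.75 to 6.52 in replicate 1, and Heyl, a Notch target, held 1 in its 3' UTR with folds of 8.56 and 9.08.

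Notch pathway genes, which keep MuSCs quiescent, held 53.9 and 49.7 unmarked sites per Mb in the replicates, against 25.1 and 23.2 over all protein-coding genes. Of the 18 genes listed, 15 had H3K4me3 and H3K27ac at the promoter. All protein-coding genes with such promoters held 36.5 and 33.7 per Mb. Of the 15 with eligible bases 9 held one, against 32% of all protein-coding genes. Acetylated sites were denser as well, at 23.2 per Mb in replicate 1 against 5.47 over all protein-coding genes. Of the distal ATAC-seq peaks in Notch genes 64.4% were unmarked, against 79.2% over all protein-coding genes. Among receptors, Notch2 held 9 sites beside 10 acetylated ones and Notch1 held 6 in replicate 1 and 7 in replicate 2, while Notch3 held 0. The ligand gene Jag1 held 4. Among nuclear partners, Maml2, a coactivator, held 17 and no acetylated site, and Rbpj, the DNA-binding effector, held 12 beside 5 acetylated. The targets Hes1 and Hey1 held 0, with at most 0.266 kb of eligible gene body.

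Transcription factor genes of the nuclear factor I, RUNX, TEAD, MEF2, TCF and partner families held 236 sites over 4.73 Mb. This was 49.9 per Mb in replicate 1 and 45.3 in replicate 2, against 25.1 and 23.2 over all protein-coding genes. H3K4me3 and H3K27ac were at the promoter of 19 of the 24 genes, and all protein-coding genes with such promoters held 36.5 and 33.7 per Mb. Of the 24 genes 21 held one, against 32% of all protein-coding genes. Acetylated sites were also denser there, at 20.1 per Mb in replicate 1 against 5.47 over all protein-coding genes. Of the distal peaks in these genes 68.6% were unmarked, against 79.2% over all protein-coding genes. Foxp1 and Rora led, followed by Tcf7l2, a Wnt effector, and Tead1, a partner of YAP, with 20 sites each. Tcf7l2 held no acetylated site and Tead1 held 10. Runx2 held 16 unmarked and 0 acetylated sites with an H3K4me3 and H3K27me3 promoter, and Runx1 held 15 and 11 with an active promoter. Nfia, Nfib and Nfix, nuclear factor I genes, held 12, 15 and 5 unmarked and 13, 10 and 10 acetylated sites.

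Genes of the extracellular matrix held 51.8 and 47.1 sites per Mb, against 25.1 and 23.2 over all protein-coding genes. H3K4me3 and H3K27ac were at the promoter of 15 of the 20 genes, and all protein-coding genes with such promoters held 36.5 and 33.7 per Mb. The sites lay in 17 of 20 genes, against 32% of all protein-coding genes. Acetylated sites were again denser too, at 25.7 per Mb in replicate 1 against 5.47 over all protein-coding genes. Of the distal peaks in matrix genes 66.5% were unmarked, against 79.2% over all protein-coding genes. Col4a2, a basement membrane collagen, held 25 in replicate 1 and 24 in replicate 2 with 1 acetylated peak, while its divergent neighbour Col4a1 held 10 unmarked and 7 acetylated peaks. Col5a1, Col15a1 and Lama2 held 11, 10 and 10 sites, and Fn1, fibronectin, held 0 distal ATAC-seq peaks in 31.8 kb of eligible body.

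Sarcomere genes had a summed density near that of all genes, and the dystrophin complex and long neural genes had lower ones. The 17 sarcomere genes with eligible bases held 23.5 and 19.98 per Mb, near the 25.1 and 23.2 over all protein-coding genes, and 9 of the 17 held a site, with 4 sites in Actn2 and 1 in Ttn, the giant titin gene. The dystrophin complex held 13.2 and 12.5 per Mb over its summed 5.68 Mb. In replicate 1 the median of its 16 genes was 28.1 per Mb, where the median was 4.67 for sarcomere genes and 0 over all protein-coding genes. Of the 16 genes, 14 held a site against 32% of all genes. The summed value rests on 2 very long genes. Dmd, on the X chromosome, held 3 sites in 2176 kb and Sgcd held 2 in 1060 kb, whereas Utrn, the dystrophin paralogue, held 13 in 423 kb and Sntb2, a syntrophin, held 9 in 74.6 kb. Long genes of neural adhesion and synapse held 2.49 sites per Mb with either replicate as the query, although 13 of 20 held at least 1 site. Cdh13 stood out among them with 23 unmarked and 14 acetylated sites, and the other 12 held 1 to 9. Of marker genes of other cells, 2 of 5 blood, 4 of 7 endothelial, 4 of 9 fibro-adipogenic and 3 of 8 neuron genes with eligible bases held a site, against 32% of all protein-coding genes. Their densities in replicates 1 and 2 were 11.8 and 11.8 per Mb for blood, 28.7 and 28.7 for endothelial, 53.5 and 49.4 for fibro-adipogenic and 14.2 and 14.2 for neuron markers. The fibro-adipogenic value was close to that of the Notch genes and came mostly from Col15a1, with 10 of 13 sites.

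The windows around the summits held recurrent motifs. In 200-bp windows centred on the summit, the 12-letter CTCF core occurred at 5.00% ± 0.0813 of the sites (SD, n = 2), and 0.136% of 4599361 gene-body tiles of the same length that touch no ATAC-seq peak held it. The share depends on the match and on the lists, and was 16.8% in replicate 1 with 1 mismatch allowed, for which the tiles were not searched, and 3.34% without replicate 2. AP-1 occurred at 28.4% ± 0.627 of the sites and 5.84% of the tiles, and the MyoD-type E-box at 31.9% ± 0.196 and 7.41%. The windows were richer in G and C than the tiles, with 51.9% GC against 41.9%, and less covered by repeats, with 8.23% masked bases against 30.1%. The part that base composition has in these shares was not tested. In replicate 1, 12749 sites (57.0%) held at least 1 of the 3 motifs, 1518 held both AP-1 and the E-box, and 9636 (43.05%) held none.

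Other motifs had shares above, near or below those of the tiles. The ZEB-type E-box (CACCTG), which differs from the MyoD-type in its central letters, occurred at 13.3% of the sites and 12.03% of the tiles. RUNX (AACCACA) occurred at 5.93% and 4.77%, TEAD (ACATTCC) at 4.44% and 2.72%, ETS (CCGGAAG) at 1.28% and 0.539%, SP/KLF (GGGCGG) at 6.07% and 1.71% and forkhead (TGTTTAC) at 2.56% and 3.05%. NFY (ATTGG) occurred at 19.8% of the sites and 27.7% of the tiles. The PAX7 homeodomain palindrome occurred at 0.0899% of the sites and 0.764% of the tiles, and it is rich in A and T. A match is a description of letters and not of binding.

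Motif shares differed between unmarked and acetylated sites. The CTCF core was at 5.00% ± 0.0813 of unmarked and 1.26% ± 0.0357 of acetylated gene-body sites, and at 7.17% ± 0.240 of unmarked intergenic sites (SD, n = 2 each). AP-1 was at 28.4% of unmarked and 23.6% ± 0.843 of acetylated sites, whereas the MyoD-type E-box was at 31.9% of unmarked and 39.1% ± 0.923 of acetylated sites. Promoter ATAC-seq peaks had a different profile, with 36.5% SP/KLF, 6.50% ETS and 20.6% MyoD-type E-box. Their share with the CTCF core, 3.72%, lay between those of acetylated and unmarked gene-body sites. Within the unmarked set, 1.74% of the 2418 sites within 1 kb of a mark held the CTCF core, against 5.13% at 1 to 10 kb and 5.43% of the 13518 sites beyond 10 kb.

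**Figure D4:**
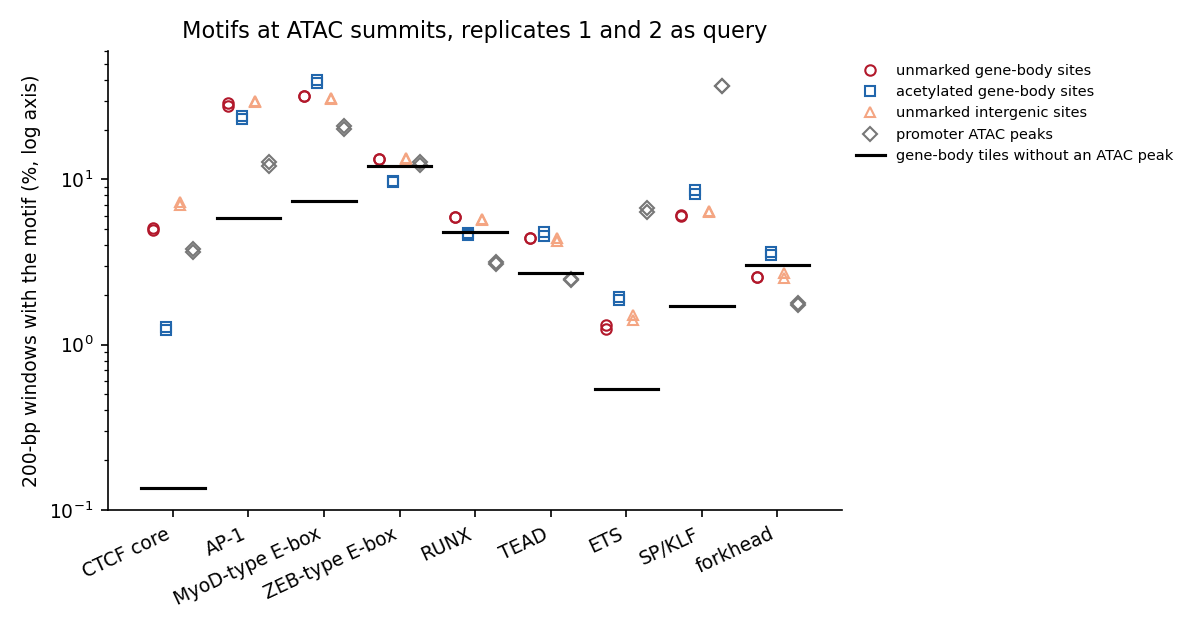
Share of 200-bp windows holding each motif on either strand, on a log axis, for 4 classes of reproducible ATAC-seq peaks (2 points each, replicates 1 and 2 as query) and for gene-body tiles without an ATAC-seq peak (black lines). Unmarked gene-body sites lie at 5.00% for the CTCF core, above the acetylated sites at 1.26% and the tiles at 0.136%, while the ZEB-type E-box at 13.3% lies near the tiles at 12.03%.

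The 3 motifs were concentrated at the summits. Per base, CTCF cores were 26.99 times as frequent within 50 bp of the summit as at 350 to 450 bp on either side, AP-1 motifs 6.42 times and MyoD-type E-boxes 3.82 times. The ZEB-type E-box, at 0.896 times, was not. The flanks come from the same sites and thus the same genes. Of the 8-letter words counted over both strands in the windows, GTGACTCA, an extended AP-1 motif, had 4.83 occurrences per 10 kb against 0.395 in the tiles, 12.2 times as many. GAGGGCGC, which resembles part of a CTCF site, was 12.04 times as frequent, and GCAGCTGC, an extended E-box, 8.58 times, while AAATAAAT had 0.147 times the frequency of the tiles.

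**Figure D5:**
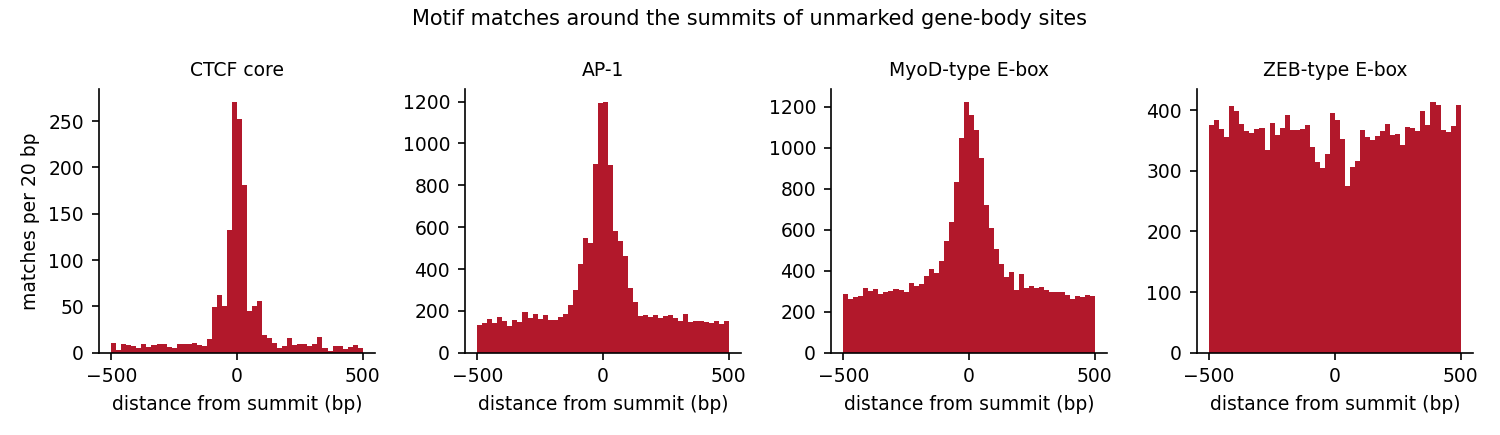
Matches per 20 bp around the summits of the 22385 unmarked sites, by distance from the summit in bp, both strands. CTCF core, AP-1 and MyoD-type E-box matches peak at the summit (26.99, 6.42 and 3.82 times the flanks at 350 to 450 bp), and ZEB-type E-boxes do not (0.896 times).

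Enrichment and motif content varied together for AP-1 more than for CTCF. When the sites were split into 5 classes of 4477 sites by their replicate 2 fold, the share with AP-1 was 22.6%, 24.6%, 27.3%, 28.7% and 36.6% from the lowest to the highest class. The share with the MyoD-type E-box was 29.8% in the lowest class and 36.01% in the highest. The CTCF core was at 3.91% in the lowest class and 4.65% in the highest, and between 4.89% and 5.67% in the other 3. The windows of all 5 classes had 51.5% to 52.4% GC. Among the 500 sites with the highest lower fold, 233 (46.6%) held AP-1, 226 (45.2%) the MyoD-type E-box and 16 (3.20%) the CTCF core. Sites with both AP-1 and the E-box had median folds of 7.25 and 7.20 in replicates 1 and 2, and sites with none of the 3 motifs had 5.79 and 6.02.

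Motifs also differed by place. Coding exon sites held AP-1 at 15.1% and the MyoD-type E-box at 43.8%, against 28.5% and 31.4% in introns, and their windows had 56.5% GC against 51.7%. The CTCF core was at 8.58% of coding exon sites, 8.98% of 3' UTR sites and 4.67% of intron sites. Genes with most CTCF-core sites were Gm20388, with 12 of its 297 sites, and Gse1, which lies inside it, with 5 of 52. Camta1 held 4 of 48, Fgfr2 4 of 109, Pde10a 4 of 31 and Sh3pxd2a 4 of 32. These are counts in genes with many sites, and over all sites of replicate 1 the share was 4.95%.

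The strongest sites were intronic, as were 92.5% of all sites, and most held AP-1, which 28.4% of all sites held. The site with the highest lower fold of the 2 replicates lay in an intron of Xrcc6, which encodes Ku70, the partner of Ku80 in end joining of DNA breaks, at chr15:81991146-81991261, with folds of 56.3 and 55.7 in replicates 1 and 2. It lay 3311 bp from the nearest start site and 23844 bp from a mark, held none of the 3 motifs, and 48% of its window was masked as repeat. The next were in Qk, an RNA-binding regulator of splicing, with 33.7 and 38.1, in Slc26a9, an anion transporter, with 36.8 and 32.8, and in Zfp286, a zinc finger gene, with 35.3 and 31.0. Of the 10 strongest, those in Tango6, Ano2, Gm26871, Sec24d and Prtg had lower folds of 26.6 to 30.8, and each of these 5 held AP-1, as did Qk. The peaks in Xrcc6 and Slc26a9 were 116 and 126 bp wide and the other 7 named here were 238 to 479 bp wide. The 50 bases at each of these summits had 1 exact match in the 21 chromosomes. Copies with mismatches or on other sequences were not searched for.

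Strong sites in coding exons had lower folds. Among them were sites in Zswim5 with folds of 20.1 and 20.8, in Zfr, a zinc finger RNA-binding protein, with 19.9 and 23.4, in Cand2, a regulator of cullin ligases found in muscle, with 21.4 and 19.2, and in Ppp1r12b, a myosin phosphatase subunit, with 18.99 and 20.2. All 4 held a MyoD-type E-box, which 43.8% of all coding exon sites held. Zswim5 held AP-1 as well, and all 4 lay at least 6402 bp from a mark.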

How the data were processed

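Peak lists of 8 libraries (ATAC-seq, H3K4me3, H3K27ac and H3K27me3, 2 replicates each) were used from a series of 272 samples. The authors trimmed reads with Trim Galore (0.6.10), aligned them to mm10 with BWA (0.7.17-r1188), discarded duplicates, reads of low mapping quality and reads in blacklisted regions, shifted the ATAC-seq alignments by the Tn5 offset with deepTools (3.5.5), and called peaks in each library separately with MACS2 (2.2.6). As deposited, each peak carries a fold enrichment (a ratio to local background), a −log10 p-value, a −log10 q-value, the offset of its summit and a score. The score was made by the authors' peak caller from the −log10 values. The lists hold no read numbers, so depth is unknown and no interval was computed.

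Places in exons, introns and parts of a gene were given by the summit on GENCODE M21 (GRCm38.p6). Distance to start sites, overlap with gene bodies and the number of sites per gene used the whole peak. The minimum overlap between peaks was 1 bp. Motifs were searched on both strands of 200-bp windows, 18 motifs in all, with Python 3.11.15, numpy 2.4.6, pandas 2.3.3, scipy 1.17.1 and numba 0.67.0. The overlap, distance and motif code was tested on simulated data. With 1 cell type and 2 libraries per assay no comparison between groups could be tested, so values are descriptions. The rule, the members and the 11 gene lists were chosen with earlier results of these data known. Named were the 20 protein-coding and 5 other genes with most sites, the 5 with most sites per 100 kb among protein-coding genes with at least 5 sites, the genes at the 10 strongest sites and at the 5 strongest in coding exons, and genes of the lists, except for some items that are not reported here. Alternatives changed the query replicate, the overlap, the peak thresholds, the distances, the gene set, the way a place was given and the motif match.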

Additional observations from a re-analysis of the deposited data

How the results depend on the processing

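No paired analysis was possible because no test was run and the replicate numbers of the ATAC-seq and ChIP-seq libraries name separate peak lists. Of 58 values recomputed under alternatives, 23 stayed within the spread between replicates or, for counts, within 1.5 times the value above, and 35 moved. The spread between the queries is very small, so small shifts count as moved. Without replicate 1 or 2, the number of sites was 28510 to 42357, the number of genes 7799 to 10442, the unmarked share of distal gene-body peaks 87.1% to 89.4%, the exon share 7.52% to 7.94% and the CTCF-core share 3.34% to 4.37%. The unmarked share was 79.3% with replicate 2 as the query, 78.9% with reciprocal overlap, 77.8% with a −log10 q of at least 5 for ATAC-seq and 85.2% with that minimum for the marks, 86.9% when a mark had to be in both replicates, 70.7% when a mark within 1 kb removed a site, 76.9% at 1 kb from start sites and 78.8% with protein-coding genes only. The exon share was 7.47% with replicate 2, 7.54% with reciprocal overlap, 7.49% with marks in both replicates, 7.56% with marks within 1 kb, 8.89% at 1 kb from start sites, 8.27% with protein-coding genes and 9.13% when any overlap of the peak gave the place. The CTCF-core share was 5.06%, 5.65%, 5.25%, 4.69%, 4.62%, 5.33%, 5.29% and 5.04% under the 8 settings in the order given for the unmarked share, 3.81% in windows of 100 bp and 16.8% with 1 mismatch allowed. Leaving out the gene models Gm20388 and Fgfr2, an alternative chosen after seeing the data, gave 79.2% unmarked and 7.49% in exons. The causes of these shifts were not tested. The unknown depth limits what the absence of a mark can show.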
